A study of Mus musculus with 9 samples.

Results

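Toll-like receptors are pattern recognition receptors that sense microbial products and nucleic acids, and their transcripts were followed here in 3 subsets of mouse splenic B cells. The genes were chosen by name and were 10 of the 24459 rows of the expression table: the receptors Tlr1, Tlr2, Tlr3, Tlr4, Tlr6, Tlr7 and Tlr9, the receptor homologue Cd180 with its partner Ly86, and the trafficking protein Unc93b1. Follicular (FO) B cells were sorted as B220+IgMintCD21intCD23+CD93- cells with high IgD, and the IgD-low subset, here BDL, came from the same gate with low IgD. Marginal zone (MZ) B cells were sorted as B220+IgMhiCD21hiCD23-CD93- cells. All mice were naive and 8 to 10 weeks old, the labels give no engineered allele or treatment for any group, and each library came from the pooled splenocytes of 5 mice. The labels name C57/BL6 as the strain and the paper's legend names B10.PL, and which of these holds was not tested. The cells came from 3 independent sorts, with 3 libraries per subset and 9 in all, and the titles give 1 library of every subset on each of 3 dates. Libraries with the same date carry the same replicate number here.

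Toll-like receptors recognize their ligands at either of 2 sites. Tlr1, Tlr2, Tlr4 and Tlr6 act mainly at the cell surface, where they bind bacterial lipoproteins and lipopolysaccharide, and Tlr3, Tlr7 and Tlr9 act in endosomes, where they bind double-stranded RNA, single-stranded RNA and unmethylated CpG DNA. Unc93b1 escorts the endosomal receptors from the endoplasmic reticulum. Cd180, also called RP105, resembles Tlr4 outside the cell but lacks its signalling domain, and is held at the B cell surface by Ly86, also called MD-1. MZ B cells line the marginal sinus of the spleen and are known for fast antibody responses to blood-borne antigens and to Toll-like receptor ligands. BDL are a regulatory subset that the study set apart from FO B cells by their low surface IgD.

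Values are FPKM, fragments scaled to the length of the transcript and to the mapped fragments of the library. On this scale levels were set side by side between genes and between libraries. The libraries still differed in their summed FPKM, with 446033 to 461648 in FO, 467018 to 477024 in BDL and 466241 to 517208 in MZ. No further scaling was applied outside the alternatives, and how much this adds to a difference was not tested. Differences between subsets are on the scale log2(FPKM + 0.1), with their standard error (SE) from a fit over all 9 libraries, and adjusted p-values are over the 11597 rows whose mean reached 0.5 FPKM. All 10 genes passed this minimum. The 3 comparisons share libraries, since MZ over FO and BDL over FO both use the FO libraries and BDL over MZ uses the other 2 subsets again. A row was called at an adjusted p under 0.05 together with a fold change of at least 2.

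The genes of 2 sort markers separated MZ from the other subsets. Fcer2a, which encodes CD23, was 389 to 538 FPKM in the FO and BDL libraries and 26.0 to 34.5 FPKM in the MZ libraries. Cr2, which encodes CD21, was 400.0 to 505 FPKM in the MZ libraries and 97.8 to 149.7 FPKM in the others. Cd93, whose product all gates excluded, had means of 12.5 FPKM in BDL, 3.90 FPKM in FO and 1.41 FPKM in MZ. It was called higher in BDL than in FO (log2 difference 1.67) and than in MZ (3.06), and lower in MZ than in FO (-1.39). The paper gives the refined phenotype of BDL as CD93int. Transcripts of Ighd had no row, which leaves IgD itself unmeasured. MZ replicate 3 had the highest value of its subset in 55.9% of the rows tested and BDL replicate 3 in 45.1%, against 37.9% for FO replicate 3. The X-linked Xist was 66.1 to 141 FPKM in the replicate 1 libraries, 22.5 to 50.1 FPKM in replicate 2 and at most 0.104 FPKM in replicate 3, whereas the Y-linked Ddx3y was at most 0.0329 FPKM in replicate 1 and 17.9 to 33.9 FPKM in the others. Both genes went with the replicate number in the same way in every subset. None of 5 sex-linked genes passed in any comparison, but this could not show the subsets to be alike. With near-absent and high values in each subset, the SE of Xist in MZ over FO was 3.39. The log2 difference of Xist in MZ over FO was 1.09, 1.15 and -0.19 at replicates 1 to 3, with replicate 3 near the floor. In MZ over FO, 1 of the genes described below (Tlr3) passed without replicate 1 of every subset, 3 without replicate 2 (Tlr3, Tlr7 and Cd180) and 5 without replicate 3, against 5 with all libraries. Of all rows, 635 of 11533 passed as higher in MZ without replicate 1 and 959 of 11537 without replicate 2. These were 1744 of 11634 without replicate 3 and 1658 of 11597 with all libraries.

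MZ B cells had the highest RNA level of 7 of the 10 genes by the mean, and the differences were largest for Tlr3, Tlr7 and Cd180. In MZ over FO, 5 of the 10 genes passed an adjusted p of 0.05, all higher in MZ, against 14.3% of all rows tested that did so in this direction. With any 1 FO library, MZ replicate 1 or MZ replicate 3 left out the count was 3, and with the replicate number as a block it was 7, as given below. Of the 5, Tlr3, Tlr7 and Cd180 were also at least 2-fold higher, against 5.54% of all rows, and Ly86 and Unc93b1 were not. For the same 5 of the 10 genes, and no other, every MZ library lay above every FO library, which held for 23.6% of all rows. This rests on the same libraries as the fit and is no further support. The median difference over the 10 genes was 0.45 on the log2 scale, beside -0.01 over all rows tested. A bulk library cannot tell apart fewer cells that express a gene and less RNA of it per cell, and this holds for every difference given here.

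The 10 genes had the same order of levels in BDL as in FO, and none of them passed in BDL over FO without a block for the replicate number. With that block 1 gene passed, Tlr2. In the fit with subset as its only term, the tool limma gave 0 genes at an adjusted p under 0.05, against 7.73% of all rows in either direction, and hence 0 called, against 1.91% of all rows. At an unadjusted p under 0.05 there was 1 gene, Tlr3, whose 95% interval alone left out 0. The libraries of BDL and FO did not overlap for Tlr7, higher in BDL, and for Tlr3, lower in BDL. Of all rows, 24.4% were higher in BDL without overlap and 10.3% were lower. The median difference was 0.06, beside 0.05 over all rows tested. Among all rows, 701 passed as higher in BDL and 195 as lower, but with upper quartile scaling these were 602 and 371, and with quantile normalization 626 and 351.

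In BDL over MZ, 4 of the 10 genes were lower at an adjusted p under 0.05, namely Tlr3, Tlr7, Cd180 and Unc93b1, against 11.6% of all rows. Only Tlr3 of these was called in the fit as given, against 4.34% of all rows, while Tlr7 and Cd180 lay just short of the 2-fold threshold with a log2 difference of -0.97 each. With upper quartile scaling or quantile normalization, or without BDL replicate 3 or MZ replicate 2, both were called as well, so that 3 genes were. The libraries of these 4 of the 10 genes, and of no other, did not overlap, and 16.4% of all rows were lower in BDL without overlap. This too rests on the libraries of the fit. The median difference over the 10 genes was -0.39, beside 0.06 over all rows. Of all rows, 1909 passed as higher in BDL and 1346 as lower, while with upper quartile scaling 1447 were higher and 1843 lower.

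**Figure D1:**
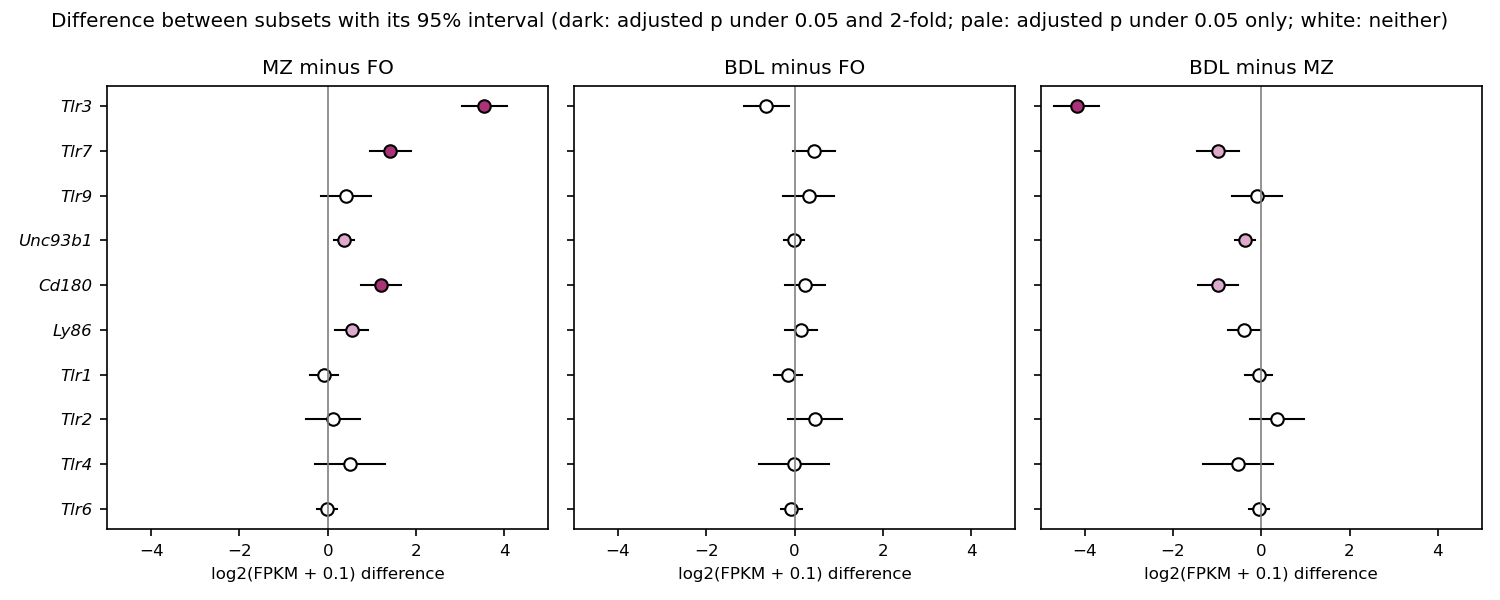
Difference between subsets for each gene on the log2(FPKM + 0.1) scale, with the 95% interval of the fit over 9 libraries; dark points were called, pale points passed the adjusted p alone and white points passed neither. Tlr3 stands farthest from 0 in MZ minus FO (3.54) and in BDL minus MZ (-4.18), and no point is filled in BDL minus FO.

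The endosomal receptors differed from each other in how they varied. Tlr3, the sensor of double-stranded RNA, lies on the minus strand at chr8:46481019-46495962 (mm9; GENCODE M1), and its longest annotated transcript has 7 exons and 4327 nt. Its level was 0.792, 0.991 and 0.874 FPKM in FO replicates 1 to 3, 0.526, 0.424 and 0.669 FPKM in BDL, and 10.9, 8.79 and 15.3 FPKM in MZ. The lowest MZ library was thus several times above the highest library of either other subset. In MZ over FO the log2 difference was 3.54 (SE 0.22, adjusted p = 1.4e-05), and the ratio of the mean FPKM was 13.1. For BDL over MZ it was -4.18 (SE 0.22, adjusted p = 8.2e-06), and the mean was 21.6-fold higher in MZ. Between BDL and FO the log2 difference was -0.64 (SE 0.22, 95% interval -1.14 to -0.13, adjusted p = 0.12), lower in BDL at all 3 replicate numbers but short of the threshold. The lowest Tlr3 value, in BDL replicate 2, corresponded to approximately 120 fragments, so that its level was low but measured. Both of its calls held under all 22 alternatives tried.

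The promoter of Tlr3 is shown as that of the gene with the widest contrast between the subsets. It is the 250 bases before the start of the gene in RefSeq, on the minus strand of GRCm38.p6, read 5′ to 3′ in lower case because none of the 4 motifs given below was found in it.
Tlr3 chr8:45410381-45410630: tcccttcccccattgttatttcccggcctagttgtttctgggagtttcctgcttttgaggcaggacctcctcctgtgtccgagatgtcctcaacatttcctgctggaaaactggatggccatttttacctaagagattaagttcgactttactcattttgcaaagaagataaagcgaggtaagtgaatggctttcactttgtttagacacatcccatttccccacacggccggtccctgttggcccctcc

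Tlr7, the sensor of single-stranded RNA, lies on the minus strand at chrX:163742861-163768490, with Tlr8 40599 bases away on the same strand. It was 11.8, 11.1 and 10.96 FPKM in FO, 15.3, 12.7 and 18.7 FPKM in BDL, and 30.6, 22.8 and 39.7 FPKM in MZ. No library of a subset reached into the range of the next. Between MZ and FO the log2 difference was 1.42 (SE 0.21, adjusted p = 0.0013), a ratio of means of 2.75. For BDL over MZ it was -0.97 (SE 0.21, adjusted p = 0.0091). The step from FO to BDL was 0.45 (SE 0.21, 95% interval -0.03 to 0.92, adjusted p = 0.23) and did not pass, with 0.38, 0.19 and 0.77 at replicates 1 to 3. Tlr7 is X-linked, and Xist and Ddx3y differed between replicate numbers as given above. In replicates 1 and 2, Xist was also higher in MZ than in FO. Within each replicate number the order of Tlr7 was MZ above BDL above FO. Without replicate 1 of every subset, which leaves 2 libraries per subset, the difference in MZ over FO was 1.44 (adjusted p = 0.054; range over the alternatives 0.00069 to 0.054) and that in BDL over MZ was -0.96 (adjusted p = 0.15; range 0.0032 to 0.15).

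Tlr9, the sensor of unmethylated CpG DNA, lies on the plus strand at chr9:106124929-106129207. It was 26.7, 18.8 and 26.1 FPKM in FO, 29.4, 23.6 and 36.6 FPKM in BDL, and 30.7, 23.6 and 42.4 FPKM in MZ. The subsets overlapped, and replicate 2 was the lowest in each of them. The log2 difference in MZ over FO was 0.41 (SE 0.25, adjusted p = 0.28), in BDL over FO 0.32 (SE 0.25, adjusted p = 0.47), and in BDL over MZ -0.09 (SE 0.25, 95% interval -0.66 to 0.48, adjusted p = 0.82). The excess of Tlr9 over Tlr7 was smallest in the MZ libraries. The ratio of Tlr9 to Tlr7 was 2.26, 1.69 and 2.37 in FO, 1.91, 1.85 and 1.95 in BDL, and 1.003, 1.03 and 1.07 in MZ. The MZ libraries lay below all others, with a log2 difference of -1.01 to FO and of 0.88 for BDL over MZ (two-sided exact permutation test, p = 0.1 for each, the smallest p that 3 libraries against 3 allow). Between BDL and FO the ratio differed by -0.13 (exact permutation p = 0.4).

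Unc93b1, the chaperone on which all 3 endosomal receptors depend to leave the endoplasmic reticulum, lies on the plus strand at chr19:3935186-3949340. It was the most abundant of the 10 genes in every subset by the mean, with 247, 232 and 246 FPKM in FO, 260.0, 241 and 216 FPKM in BDL, and 302, 300.025 and 327 FPKM in MZ. The MZ libraries lay above all others, while those of FO and BDL overlapped. The log2 difference was 0.36 in MZ over FO (SE 0.10, adjusted p = 0.028) and -0.38 in BDL over MZ (SE 0.10, adjusted p = 0.023), each under 2-fold. Between BDL and FO it was -0.02 (SE 0.10, adjusted p = 0.92). Both differences were close to the threshold, and that in MZ over FO no longer passed without any of the 3 FO or the 3 MZ libraries, where the adjusted p was 0.058 to 0.092, with quantile normalization (0.085), and without replicate 1 (0.23) or replicate 2 (0.22) of every subset. That in BDL over MZ did not pass without BDL replicate 2 (0.055), MZ replicate 1 (0.059) or MZ replicate 2 (0.052), in the fit of the 6 libraries alone (0.068), and without replicate 1 or 2 of every subset (0.17 each).

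**Figure D2:**
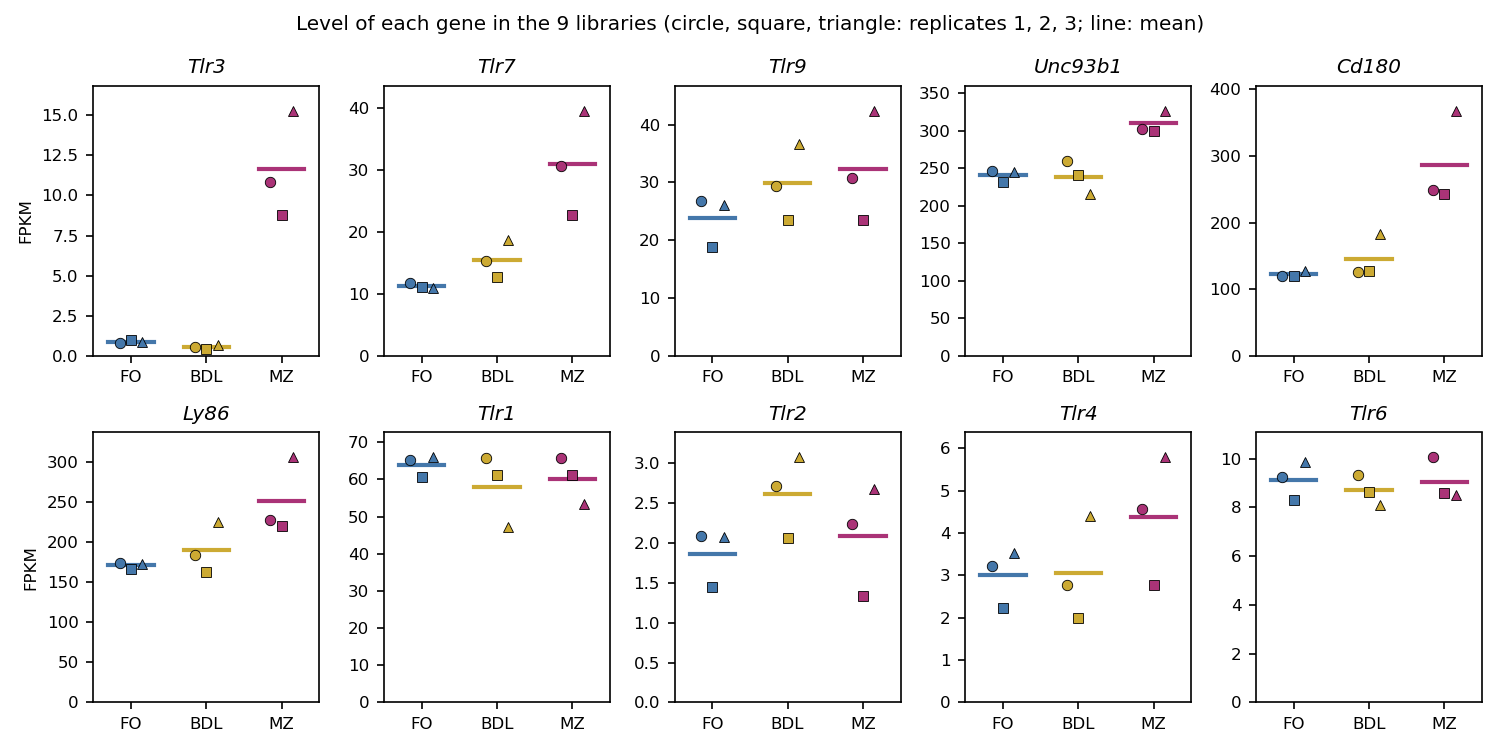
FPKM of each gene in the 9 libraries, with the axes starting at 0; circles, squares and triangles are replicates 1, 2 and 3, and the line is the mean of 3 libraries. For Tlr3 the MZ libraries sit at 8.79 to 15.3 FPKM and the others under 1 FPKM, and Tlr7 forms 3 steps without overlap.

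Cd180 and Ly86, whose products form a complex at the B cell surface, both lie on the plus strand of chromosome 13, Cd180 at chr13:103483638-103529709 and Ly86 at chr13:37437214-37510905. Cd180 was 121, 119 and 127 FPKM in FO, 126, 127 and 183 FPKM in BDL, and 249, 243 and 368 FPKM in MZ. All MZ libraries were above the others, and replicate 3 was the highest in each subset. The log2 difference was 1.20 in MZ over FO (SE 0.20, adjusted p = 0.0025; ratio of means 2.34), -0.97 in BDL over MZ (SE 0.20, adjusted p = 0.0075) and 0.23 in BDL over FO (SE 0.20, adjusted p = 0.51). Without replicate 1 of every subset the adjusted p for MZ over FO was 0.053 (range over the alternatives 0.00055 to 0.053) at a difference of 1.28. For BDL over MZ it was 0.11 without replicate 1 and 0.079 without replicate 2 of every subset (range 0.00081 to 0.11). Exons of Mast4, on the opposite strand, overlap those of Cd180. Mast4 was 10.0 to 12.5 FPKM in MZ and 5.66 to 7.01 FPKM in the others, and where reads carry no strand, as the labels describe them, fragments of the overlap cannot be told apart.

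Ly86 was 174, 167 and 173 FPKM in FO, 185, 163 and 225 FPKM in BDL, and 228, 221 and 307 FPKM in MZ. FO and MZ libraries did not overlap, while BDL replicate 3 reached into the MZ range. The log2 difference was 0.54 in MZ over FO (SE 0.16, adjusted p = 0.038) and -0.40 in BDL over MZ (SE 0.16, adjusted p = 0.10). The difference in MZ over FO did not pass without BDL replicate 1 (adjusted p = 0.059), MZ replicate 1 (0.060), MZ replicate 3 (0.080) or any FO library (0.094 to 0.10), and without replicate 1 (0.23) or replicate 2 (0.12) of every subset. That in BDL over MZ passed with upper quartile scaling (0.030), without BDL replicate 3 (0.041) and without replicate 3 of every subset (0.027). Between BDL and FO it was 0.14 (SE 0.16, adjusted p = 0.61). The balance of the 2 partners differed between subsets: the ratio of Ly86 to Cd180 was 1.44, 1.40 and 1.36 in FO, 1.46, 1.28 and 1.23 in BDL, and 0.916, 0.909 and 0.833 in MZ. Within each library, Cd180 was above Ly86 only in MZ, where the ranges of the 2 genes overlapped, as they did in BDL. On the log2 scale the ratio was 0.66 lower in MZ than in FO and 0.58 higher in BDL than in MZ (exact permutation p = 0.1 for each, the smallest possible), and between BDL and FO it differed by -0.09 (exact permutation p = 0.4).

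The promoters of this pair are shown because both genes were higher in MZ and their products work together. They are the 250 bases before the start of each gene in RefSeq, on the plus strand of GRCm38.p6, with the motif found in that of Cd180 in capitals.
Cd180 chr13:102693297-102693546: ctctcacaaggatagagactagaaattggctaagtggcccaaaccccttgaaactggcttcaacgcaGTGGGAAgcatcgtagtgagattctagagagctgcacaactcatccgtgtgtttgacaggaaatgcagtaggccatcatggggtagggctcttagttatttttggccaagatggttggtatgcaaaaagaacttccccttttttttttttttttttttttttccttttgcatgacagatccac
Ly86 chr13:37345095-37345344: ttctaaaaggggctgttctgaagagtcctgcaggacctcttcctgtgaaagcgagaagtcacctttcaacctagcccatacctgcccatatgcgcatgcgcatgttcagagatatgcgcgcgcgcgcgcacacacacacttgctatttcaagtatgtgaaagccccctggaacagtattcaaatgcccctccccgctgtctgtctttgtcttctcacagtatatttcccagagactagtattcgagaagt
The RefSeq table of promoters, 300 bases each with 50 after the start, had entries for 7 of the 10 genes and none for Tlr4, Tlr7 and Unc93b1. The letters GTGGGAA, the core bound by the Notch partner RBPJ, begin 183 bases before the start of Cd180 and also occur in the promoters of Tlr2 and Tlr9, so in 3 of 7 genes, and in 6.38% of all 32851 promoters. GAGGAAG, a core of the B cell and myeloid factor PU.1, was in those of Tlr1 and Tlr9 and in 13.6% of all. GAAANNGAA, a paired site of interferon regulatory factors, was in those of Tlr6 and Ly86, where it begins at the start itself, and in 8.56% of all. GGGNNTTCC, a form of the NF-kB site, was in that of Tlr2, where it overlaps the RBPJ letters, and in 5.82% of all. Both strands were searched, and a match is only an occurrence of these letters. A gene counted if any of its promoters matched, and Tlr1, Tlr6 and Cd180 had 2 each. The shares are per promoter, so that they are not on the same footing as the counts of genes.

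Tlr1, Tlr2, Tlr4 and Tlr6, which sense lipoproteins and lipopolysaccharide at the cell surface, did not pass in any comparison of the fit with subset alone. Tlr1, the partner of Tlr2 for triacylated lipoproteins, was the most abundant receptor, with 65.1, 60.5 and 66.002 FPKM in FO, 65.7, 61.2 and 47.2 FPKM in BDL, and 65.8, 61.2 and 53.5 FPKM in MZ. In replicates 1 and 2 it was nearly level over the subsets, and replicate 3 of BDL and of MZ lay below every other library. The log2 difference was -0.09 in MZ over FO (95% interval -0.40 to 0.22) and -0.15 in BDL over FO (-0.46 to 0.16). Tlr6, the partner for diacylated lipoproteins, was 9.25, 8.30 and 9.87 FPKM in FO, 9.34, 8.64 and 8.12 FPKM in BDL, and 10.1, 8.59 and 8.51 FPKM in MZ. Its log2 difference was -0.01 in MZ over FO (95% interval -0.25 to 0.22) and -0.07 in BDL over FO (-0.30 to 0.16). The ratio of Tlr1 to Tlr6 was 6.94 in FO, 6.55 in BDL and 6.58 in MZ.

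Tlr1 at chr5:65316050-65324000 and Tlr6 at chr5:65344345-65351287 are neighbours on the minus strand, 20344 bases apart, and share part of their coding sequence. Of the words of 50 bases in their longest transcripts, 454 occur in both, which is 17.4% of those of Tlr1 and 17.8% of those of Tlr6, and none of the other 8 genes shares such a word with another coding gene. How the authors' counting split reads between the pair is not given in the sources used here, so that both levels are uncertain. The shares of words do not bound this for Tlr6, because Tlr1 was the more abundant, at a ratio of 6.94 in FO. Reads of Tlr1 counted for Tlr6 could make up a larger part of the level of Tlr6, and this was not tested. The ratio of Tlr1 to Tlr6 is uncertain in the same way. The longest identical run has 229 bases, all of them coding, and lies at chr5:65316776-65317004 in Tlr1 and at chr5:65345067-65345295 in Tlr6 (mm9, minus strand). It is shown because no read that falls inside it can be given to either gene.
Tlr1 and Tlr6: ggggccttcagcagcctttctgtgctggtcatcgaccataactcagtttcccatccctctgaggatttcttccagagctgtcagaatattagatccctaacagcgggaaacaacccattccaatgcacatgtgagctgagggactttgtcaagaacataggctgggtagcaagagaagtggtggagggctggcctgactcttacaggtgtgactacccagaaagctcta

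Tlr2, the common partner of both for lipoproteins, lies on the minus strand at chr3:83640195-83645689 and was the lowest of the 7 receptors in MZ by the mean. It was 2.08, 1.44 and 2.07 FPKM in FO, 2.71, 2.07 and 3.08 FPKM in BDL, and 2.24, 1.33 and 2.68 FPKM in MZ. BDL had the highest value of the 3 subsets at each replicate number, but the ranges overlapped. The log2 difference in BDL over FO was 0.47 (SE 0.27, adjusted p = 0.33). Tlr4, the lipopolysaccharide receptor, lies on the plus strand at chr4:66488618-66591318 and was 3.22, 2.24 and 3.53 FPKM in FO, 2.76, 1.99 and 4.41 FPKM in BDL, and 4.57, 2.77 and 5.79 FPKM in MZ. MZ was the highest at each replicate number, and again the ranges overlapped. The log2 difference in MZ over FO was 0.50 (SE 0.35, adjusted p = 0.34) and in BDL over MZ -0.52 (SE 0.35, adjusted p = 0.31).

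Replicate 2 had the lowest Tlr2, Tlr4 and Tlr9 in every subset, and a fit with the replicate number as a block gave the same differences with a smaller SE for all 10 genes. In MZ over FO, Tlr4 (SE 0.12, adjusted p = 0.019; range over the alternatives 0.019 to 0.65) and Tlr9 (SE 0.10, adjusted p = 0.021; range 0.021 to 0.61) then passed as higher in MZ, so that 7 genes did, against 19.7% of all rows in this fit. In BDL over FO, Tlr2 passed as higher in BDL (SE 0.11, adjusted p = 0.034; range 0.034 to 0.61), which made 1 gene against 15.6% of all rows. In BDL over MZ, Ly86 (SE 0.11, adjusted p = 0.029; range 0.027 to 0.35) and Tlr4 (SE 0.12, adjusted p = 0.016; range 0.016 to 0.67) passed as lower in BDL, which made 6 genes against 16.5% of all rows. Tlr2 passed as higher in BDL than in MZ (SE 0.11, adjusted p = 0.045; range 0.045 to 0.86), against 26.2% of all rows. No gene that passed without the block was lost with it.

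**Figure D3:**
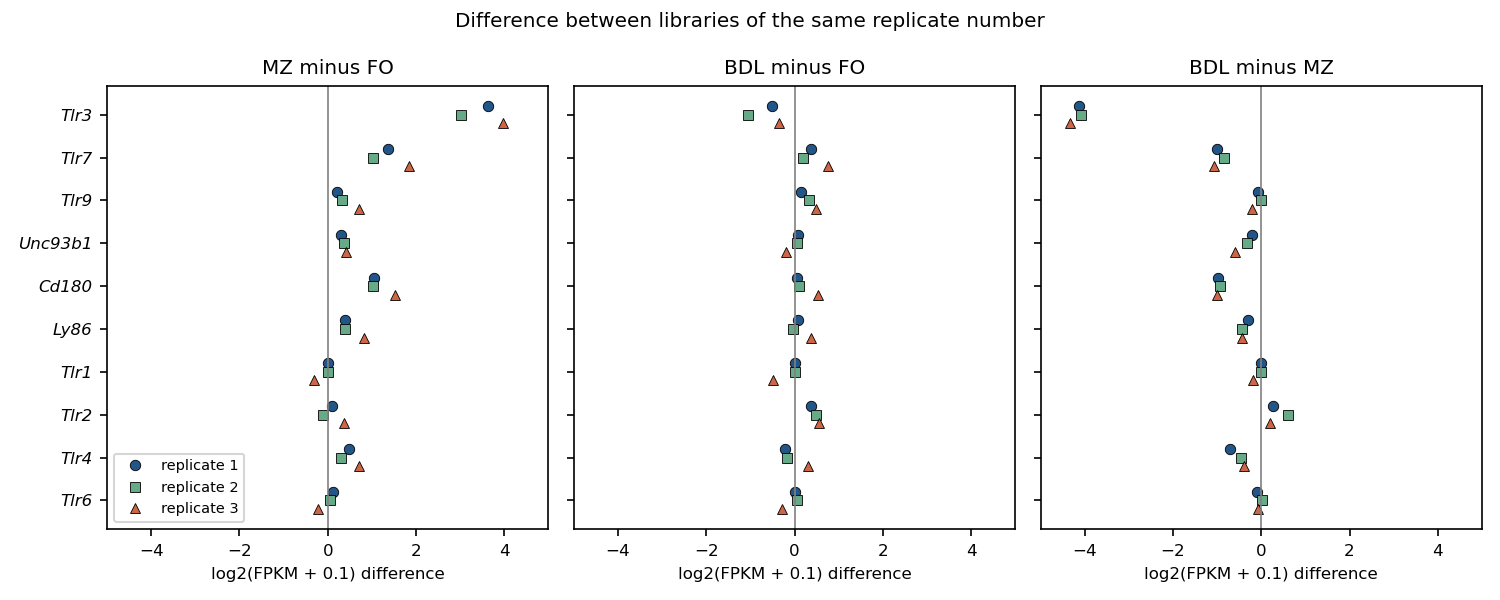
Difference between the 2 libraries of the same replicate number, for each gene and comparison, on the log2(FPKM + 0.1) scale. Tlr3, Tlr7, Cd180, Ly86, Unc93b1, Tlr4 and Tlr9 lie to the right of 0 at all 3 replicate numbers in MZ minus FO. In BDL minus FO, Tlr2, Tlr7, Tlr9 and Cd180 do so. The share of all rows that do so in either comparison was not computed.

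Ranked by mean level, the accessory genes stood above the receptors in every subset. In FO the order was Unc93b1, Ly86, Cd180, Tlr1, Tlr9, Tlr7, Tlr6, Tlr4, Tlr2 and Tlr3, and no library of a gene overlapped those of its neighbour. In BDL the order was the same, but Unc93b1 and Ly86, Ly86 and Cd180, and Tlr4 and Tlr2 overlapped and did not differ beyond their spread. In MZ the order was Unc93b1, Cd180, Ly86, Tlr1, Tlr9, Tlr7, Tlr3, Tlr6, Tlr4 and Tlr2, with Tlr3 moved from the last place to the seventh. There the 3 accessory genes overlapped each with the next, as did Tlr9 with Tlr7 and Tlr3 with Tlr6. Over the 9 libraries, Unc93b1, Ly86 and Cd180 had means above those of 97.2% to 98.0% of the rows tested, and Tlr2 above those of 17.0%.

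The other 5 mouse receptors, Tlr5, Tlr8, Tlr11, Tlr12 and Tlr13, were under the minimum, with at most 0.137 FPKM in any library. Summed over all 12 receptors, the level was 119, 103 and 119.5 FPKM in FO, 126, 111 and 119 FPKM in BDL, and 155, 129 and 168 FPKM in MZ. The MZ libraries had the 3 highest sums, on FPKM without further scaling. Tlr1 made up 56.1% ± 2.04 (SD, n = 3) of it in FO, 49.0% ± 8.24 (SD, n = 3) in BDL and 40.5% ± 7.93 (SD, n = 3) in MZ. Tlr7 made up 9.92% ± 0.772 in FO, 13.1% ± 2.29 in BDL and 20.3% ± 3.02 in MZ, and Tlr3 0.785% ± 0.153, 0.454% ± 0.0952 and 7.63% ± 1.27 (SD, n = 3 for each). Tlr9 held 20.8% ± 2.33, 25.1% ± 4.99 and 21.1% ± 3.67 (SD, n = 3 for each), without separation of the subsets.

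**Figure D4:**
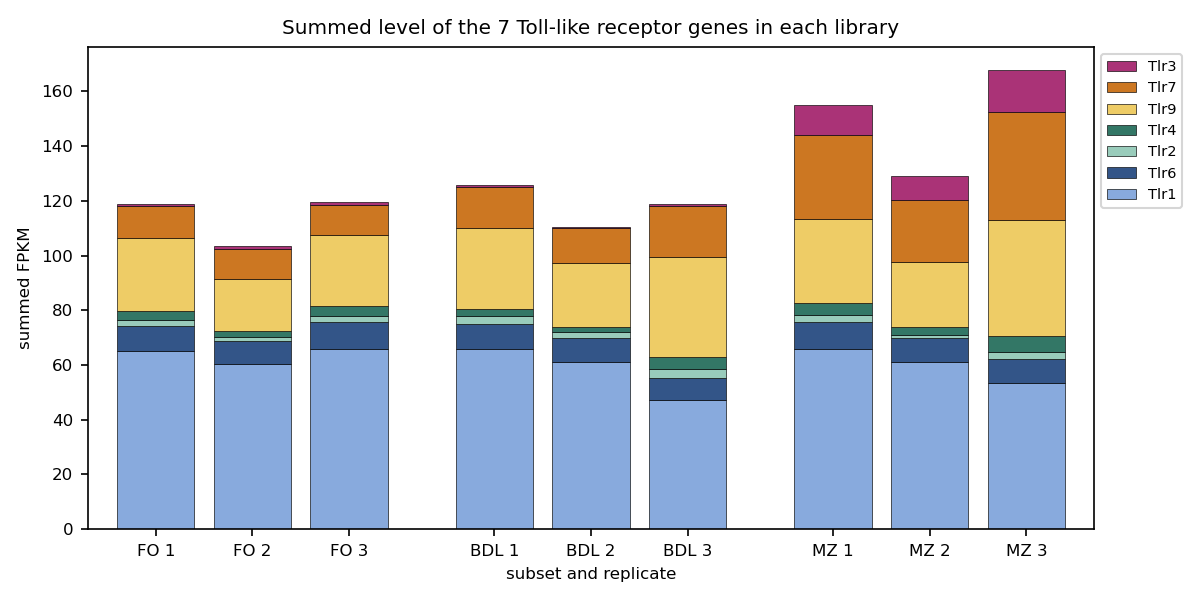
Summed FPKM of the 7 receptors above the minimum in each library, stacked by gene, with the axis starting at 0; the other 5 receptors are too low to draw. The segments of Tlr7 and Tlr3 are widest in the 3 MZ libraries, and that of Tlr1 is smaller in replicate 3 of BDL and MZ.

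Genes that act with the receptors were taken from 6 lists, which held 68 rows above the minimum in 5 of them. At an adjusted p under 0.05 in MZ over FO, 12 of the 68 were higher and 12 lower, against 14.3% and 12.8% of all rows, and with the replicate block 14 were higher and 19 lower, against 19.7% and 19.1%. Between BDL and FO, 5 were higher in BDL and 1 lower, against 6.04% and 1.68%, and with the block 10 and 4, against 15.6% and 4.93%. Between BDL and MZ, 10 were higher in BDL and 17 lower, against 16.5% and 11.6%, and with the block 15 and 23, against 26.2% and 16.5%. Called were 10 genes as higher in MZ over FO and none as lower, against 5.54% and 3.39% of all rows. In BDL over FO 2 were called higher and 1 lower, against 1.64% and 0.267%, and in BDL over MZ 2 higher and 10 lower, against 3.47% and 4.34%. Of the 10 called lower in BDL over MZ, 7 were response genes, 2 co-receptors and 1 a kinase. The pathway counts moved with single libraries: with each left out in turn, 5 to 14 genes were lower in MZ over FO and 1 to 6 were higher in BDL over FO.

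Among co-receptors, chaperones and the proteases that process endosomal receptors, 5 of 15 were higher in MZ over FO and none lower. Of all rows, 14.3% were higher and 12.8% lower. The median log2 difference of the 15 was 0.19, beside -0.01 over all rows tested. Ly96, also called MD-2, which binds lipopolysaccharide together with Tlr4, had a mean of 3.38 FPKM in FO, 5.77 FPKM in BDL and 21.0 FPKM in MZ, with a log2 difference of 2.60 in MZ over FO (SE 0.17, adjusted p = 1.7e-05) and 0.75 in BDL over FO (SE 0.17, adjusted p = 0.035). Cd36, a scavenger receptor that hands lipids to Tlr2 and Tlr6, had means of 10.5, 21.6 and 69.4 FPKM, with 2.71 in MZ over FO (SE 0.17, adjusted p = 1.5e-05) and 1.03 in BDL over FO (SE 0.17, adjusted p = 0.011). The proteases Ctsb (1.38, adjusted p = 0.00031) and Lgmn (1.06, adjusted p = 9.2e-05) and the chaperone Cnpy3 (0.45, adjusted p = 0.0034) were also higher in MZ over FO. In BDL over FO, 4 of 15 were higher, against 6.04% of all rows, namely Cd36, Ly96, Ctsb (0.67, adjusted p = 0.037) and Lgmn (0.38, adjusted p = 0.0495). For BDL over MZ, 1 was higher and 6 were lower, against 16.5% and 11.6% of all rows. Of 22 alternatives, the difference in BDL over FO passed in 18 for Cd36, 13 for Ctsb, 12 for Ly96 and 6 for Lgmn, and it did not pass for any of these without FO replicate 1 or FO replicate 3. For Ly96, Cd36, Ctsb and Lgmn the 3 subsets formed 3 steps without overlap, with BDL in the middle, as for Tlr7. These were the genes of the list that passed in BDL over FO, so that the steps are no further support. Of all rows, 23.6% were higher in MZ than in FO without overlap and 24.4% higher in BDL than in FO. A further 16.4% were the share lower in BDL than in MZ, and the share with all 3 steps was not computed. Cd14 and Lbp, which deliver lipopolysaccharide, were under the minimum.

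Of the 5 adaptors tested, the central adaptor Myd88 lay between 12.2 and 17.0 FPKM in all libraries and did not pass in any comparison. Ticam2, also called TRAM, the bridge from Tlr4 to Ticam1, was called in BDL over MZ, where its log2 difference was 1.68 (SE 0.21, adjusted p = 0.00071; 0.91, and so under 2-fold, with 1 FPKM added), with means of 1.03 FPKM in FO, 1.85 FPKM in BDL and 0.510 FPKM in MZ. It and Pik3ap1 (-0.36, adjusted p = 0.029) were the 2 of the 5 that were lower in MZ over FO, against 12.8% of all rows. Of 22 alternatives, Ticam2 passed there in 18, not without FO replicate 1 or 3, and Pik3ap1 in 15, not without any FO library or MZ replicate 1. Of 23 kinases, ligases and interferon regulatory factors, 1 was higher in MZ over FO and 5 were lower, against 14.3% and 12.8% of all rows. The kinase gene Ikbke was the higher one (1.29, SE 0.34, adjusted p = 0.023; lost without any FO library, MZ replicate 1 or MZ replicate 2), and in BDL over MZ it was at -1.95 (SE 0.34, adjusted p = 0.0035). The 5 lower genes were the transcription factor gene Irf8 (-0.73), the ligase genes Peli1 (-0.53) and Traf3 (-0.44), and the kinase genes Btk (-0.43) and Irak2 (-0.33), all under 2-fold. With any 1 FO library or MZ replicate 1 left out, Traf3 (passed in 15 of 22 alternatives) and Irak2 (13 of 22) did not pass, nor did Traf3 without MZ replicate 3 or Irak2 without MZ replicate 2 or 3 or with quantile normalization. With the replicate block 9 of the 23 were lower, against 19.1% of all rows. In the fit with subset alone, none of the 23 passed in BDL over FO, against 7.73% of all rows. With the block 1 passed there as higher, against 15.6% of all rows.

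Of 15 inhibitors of the pathway, 3 were lower in MZ over FO and 1 was higher, against 12.8% and 14.3% of all rows. All of these were under 2-fold. Nfkbia, which holds NF-kB in the cytoplasm, had means of 43.6 FPKM in FO, 44.8 FPKM in BDL and 23.3 FPKM in MZ, with a log2 difference of -0.90 in MZ over FO (SE 0.16, adjusted p = 0.0038) and 0.95 in BDL over MZ (SE 0.16, adjusted p = 0.0031). The gene Irak3, for an inactive relative of the receptor kinases, was at -0.62 in MZ over FO (SE 0.13, adjusted p = 0.0093). Sigirr (-0.64, adjusted p = 0.025) was the remaining lower gene and Cyld (0.40, adjusted p = 0.031) the higher one. Of the 15 inhibitors, none passed in BDL over FO, against 7.73% of all rows. With the block 1 was higher there and 2 were lower, against 15.6% and 4.93% of all rows. Sigirr did not pass without FO replicate 1 or 3 or any MZ library, and Cyld did not without any FO library or MZ replicate 1 or 3. For MZ over FO, Nfkbia and Peli1 did not pass without replicate 1 of every subset, nor did Irak3, Irf8, Btk and Cnpy3 without replicate 1 or 2 of every subset. Cnpy3, Pik3ap1, Irf8, Peli1, Traf3, Btk, Irak2, Sigirr, Cyld and Il12a were named after their values were seen.

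Genes known to respond to Toll-like receptor ligands were 10 above the minimum of 16, and 5 of them were called higher in MZ over FO, against 5.54% of all rows. The median log2 difference was 0.90 for the 10, beside -0.01 over all rows tested. The regulatory cytokine Il10 had means of 0.151 FPKM in FO, 0.859 FPKM in BDL and 18.8 FPKM in MZ. Its log2 difference was 6.23 in MZ over FO (SE 0.23, adjusted p = 1.1e-06) and 1.88 in BDL over FO (SE 0.23, adjusted p = 0.0032). Its FO level is close to the 0.1 FPKM added, and with 1 FPKM added these were 4.10 and 0.68, the second under 2-fold. Without replicate 1 or 2 of every subset its difference in BDL over FO did not pass. The paper reports that BDL drove the proliferation of regulatory T cells independently of IL-10. Prdm1, the regulator of plasma cell formation, was at 2.89 in MZ over FO (SE 0.30, adjusted p = 0.00018; 1.82 with 1 FPKM added), the chemokine Ccl3 at 2.63 (SE 0.20, adjusted p = 4.1e-05), the costimulatory ligand Cd86 at 1.23 (SE 0.12, adjusted p = 0.00014) and the chemokine Ccl4 at 1.15 (SE 0.33, adjusted p = 0.033). The other plasma cell markers did not go with Prdm1. Sdc1 was called lower in MZ over FO (-2.57, adjusted p = 0.00015) and higher in BDL over FO (2.42, adjusted p = 0.0015). Igj and Xbp1 did not pass in either comparison. Socs3, an inhibitor of cytokine signalling, was the single gene called lower in BDL over FO, at -1.27 (SE 0.25, adjusted p = 0.022), and was lower in MZ than in FO too (-0.86, adjusted p = 0.035). Over the 22 alternatives, Ccl4 in MZ over FO passed in 16 and was lost without FO replicate 1 or 3 or MZ replicate 2 or 3, and Socs3 in BDL over FO passed in 15 and was lost without FO replicate 2 or 3 or BDL replicate 1 or 3. Socs3 in MZ over FO passed in 13, and did not with no minimum, in the fit of 6 libraries or without FO replicate 2 or 3 or MZ replicate 1 or 3. In BDL over MZ, 7 of the 10 were called lower and Il12a (1.22, adjusted p = 0.0047) was called higher, against 4.34% and 3.47% of all rows. Il6, Il12b, Ifnb1, Cxcl10 and Ptgs2 were among those under the minimum.

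**Figure D5:**
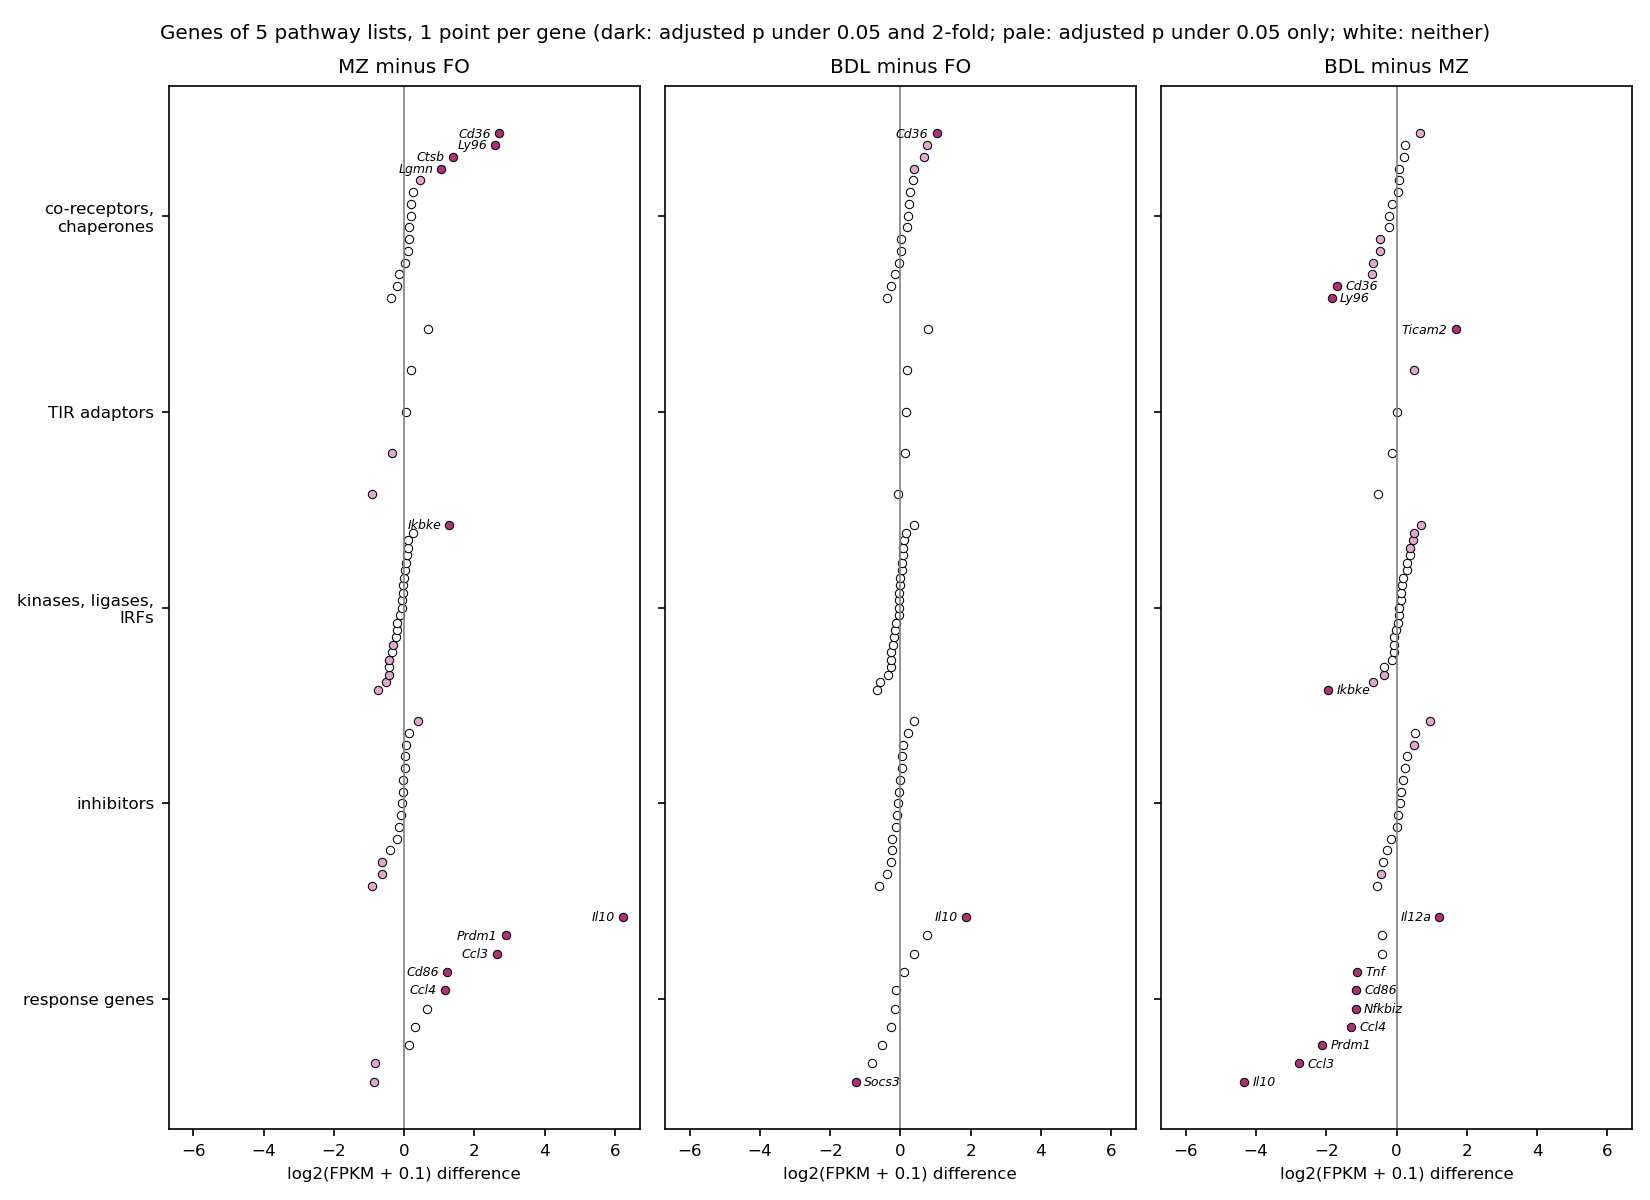
Log2(FPKM + 0.1) differences of the 68 genes in 5 lists, 1 point per gene and comparison, with called genes dark and named and genes past the adjusted p alone pale. Il10 lies farthest from 0 in MZ minus FO (6.23), and the points of BDL minus FO are mostly white.

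For each of the 5 genes that passed in MZ over FO, the 3 rows most like it over the 9 libraries were sought by Pearson's r of log2(FPKM + 0.1). The libraries share subset, replicate number and depth, so that these r are descriptions. Tlr3 was most like Cdon, Cr2 and Naip2 (r = 0.997 each), and Cr2 is the gene of the CD21 marker on which MZ cells were sorted. Tlr7 was most like Decr1, Pigp and Dusp19 (r = 0.996, 0.993 and 0.992). Cd180 was most like Ube2r2, Atf6 and Cd81 (r = 0.997, 0.992 and 0.991), Ly86 like Ell2, Ctsc and Ubac2 (r = 0.984, 0.982 and 0.979) and Unc93b1 like Mpg, Als2cr12 and Tubg2 (r = 0.985, 0.980 and 0.978). Between the genes themselves, Cd180 and Tlr7 had r = 0.971, Cd180 and Ly86 0.960, and Tlr3 and Cd180 0.912.

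Other cells that express these receptors could have been in the sorts, and their markers were measured alongside. The 12 macrophage or monocyte markers with a row were summed. The sums were 12.2 to 16.7 FPKM in FO, 21.2 to 29.2 FPKM in BDL and 57.7 to 68.6 FPKM in MZ. They so ran FO, BDL, MZ like Tlr7, Ly96 and Cd36. Mpeg1 ran in this order, with means of 3.95 FPKM in FO, 11.7 FPKM in BDL and 45.8 FPKM in MZ, and so did Itgam by the mean. Not every marker did: Lyz2 passed in no comparison, and Cd68 and Cd5l had lower means in BDL than in FO. Of the sum in MZ, 43.2 to 47.8 FPKM were Mpeg1, and Cd68 and Itgam were also higher in MZ over FO. The defining Csf1r was at most 0.626 FPKM, Cd14 at most 0.125 FPKM and Fcgr1 at most 0.037 FPKM in any library, while Emr1 was higher in BDL (3.13 to 3.88 FPKM) than in FO or MZ (at most 0.887 FPKM). Of the plasmacytoid dendritic cell markers, Siglech was 0.0499 to 0.191 FPKM in FO, 0.199 to 0.456 FPKM in BDL and 0.300 to 0.491 FPKM in MZ, and the sum of 6 markers was nearly all Ly6d and Bst2. The 7 conventional dendritic cell markers summed to at most 3.80 FPKM, and the 5 T cell markers with a row to at most 2.14 FPKM. The B cell marker Cd79a was 930.1 to 1762 FPKM in the 9 libraries. The part of such cells in the differences given above was not tested.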

How the data were processed

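RNA was sequenced from 9 libraries of sorted splenic B cells, and 1 table for the whole series was used. Per the paper and the labels, the authors aligned reads to mm9 with TopHat2 2.1.0, and computed FPKM with Cufflinks. The deposited values are FPKM per gene symbol and library. The Cufflinks version and the annotation are not given in the sources used here. As to the reads, the labels give single ends without strand, and the paper names a stranded kit. A second file with the authors' Cuffdiff comparisons was not used.

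Values were analysed as log2(FPKM + 0.1), which understates the fold changes of rows near 0.1 FPKM. The limma package (3.58.1, R 4.3.3) was run on every row whose mean reached 0.5 FPKM, with the subset as the only term, a trend in eBayes and Benjamini-Hochberg adjustment. For ratios of 2 genes, exact permutation (two-sided, scipy 1.17.1) was used. Figures were drawn with matplotlib 3.10.9 in Python 3.11.15. The fit was tested on simulated data.

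The replicate number is the order of the dates in the titles, which every subset shares, and the labels do not say what step the date marks. Deviations from the subset means of same-numbered libraries correlated over rows with r = 0.024, 0.008 and 0.014 between MZ and FO, 0.147, -0.062 and 0.049 between BDL and FO, and 0.100, 0.182 and 0.244 between BDL and MZ. Alternatives were 0.01 or 1 added in place of 0.1, no minimum or 1 FPKM, a fit of only the 6 libraries compared, scaling by the upper quartile or by quantiles, the replicate block, a robust or a trend-free eBayes, and each library left out. Leaving out a replicate number in every subset, and the alternatives for pathway genes, were added after seeing the data.

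The table holds no counts. Low values of genes that have only 1 annotated transcript, 3000 nt or longer, came in steps, and 64.6% to 75.8% of them were whole fragments to within 0.1 (20% if spread evenly), with 0.013 to 0.0175 FPKM for 1 fragment per kb. Fragment numbers are therefore approximate.

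Members and lists were chosen with earlier results of these data known. All members were named, and of each pathway list the called genes, up to the 6 with the largest fold, or else the 2 with the smallest adjusted p. Gene positions are from GENCODE M1 on NCBIM37, the Ensembl name of mm9, and promoters from RefSeq on GRCm38.p6.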

Additional observations from a re-analysis of the deposited data

How the results depend on the processing

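The calls of Tlr3 in MZ over FO and in BDL over MZ held under all alternatives, while counts of genes depended on them. In MZ over FO, 3 to 5 genes passed the adjusted p with each library left out in turn (3 without any FO library, MZ replicate 1 or MZ replicate 3), 1 gene without replicate 1 of every subset and 3 without replicate 2 of every subset. Of all rows, 635 of 11533 were higher without replicate 1 and 959 of 11537 without replicate 2, against 1658 of 11597 with all libraries. Called were 3 genes with each library left out in turn, and 1 without replicate 1 of every subset. In BDL over MZ, 3 to 5 passed with each library left out, 7 with the replicate block, 1 without replicate 1 and 2 without replicate 2 of every subset. Of all rows in BDL over MZ, 492 of 11533 were lower without replicate 1 and 708 of 11537 without replicate 2, against 1346 of 11597. There 1 to 3 were called with each library left out, namely 3 without BDL replicate 3 or MZ replicate 2 and 2 without MZ replicate 1, 3 with upper quartile scaling or quantile normalization, and 2 without replicate 2 of every subset. In BDL over FO the count was 0 with each library left out and 1 with the replicate block. Among the 10 genes, the block moved across the threshold only differences of Tlr2, Tlr4, Tlr9 and Ly86, given above. Of the 68 pathway genes, with each library left out in turn, 9 to 13 were higher and 5 to 14 lower in MZ over FO, 1 to 6 higher and 0 to 2 lower in BDL over FO, and 8 to 13 higher and 14 to 17 lower in BDL over MZ. With upper quartile scaling or quantile normalization 4 were lower in BDL over FO, and with the block 19 were lower in MZ over FO and 10 higher and 4 lower in BDL over FO. Without replicate 1 of every subset these counts were 8, 0, 0, 0, 1 and 9, without replicate 2 they were 9, 3, 0, 0, 4 and 8, and without replicate 3 they were 12, 15, 3, 2, 13 and 18, in the order given. The cause of these changes was not tested, except that leaving out a replicate number leaves 6 libraries.

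Signs turned only for differences that did not pass. For MZ over FO, Tlr2 was -0.0668 with quantile normalization and -0.0837 to 0.39 with each library left out, and Tlr6 was 0.015 with upper quartile scaling and -0.0914 to 0.0433. For BDL over FO, Tlr4 ranged over -0.32 to 0.24 and Unc93b1 over -0.0828 to 0.0522. For BDL over MZ, Tlr1 ranged over -0.16 to 0.0809, Tlr6 over -0.11 to 0.0222 and Tlr9 over -0.30 to 0.13. Without replicate 3 of every subset, MZ over FO was 0.016 for Tlr1, -0.00287 for Tlr2 and 0.085 for Tlr6, and BDL over FO was 0.015 for Tlr1, 0.036 for Tlr6 and 0.064 for Unc93b1. Tlr4 in BDL over FO was 0.076 without replicate 1 and 0.049 without replicate 2. The log2 ratios of Tlr9 to Tlr7 and of Ly86 to Cd180 kept their direction in the 8 alternatives run on them (constants of 0.01 and 1, and each of 6 libraries left out), with -1.16 to -0.92 and -0.69 to -0.62 in MZ over FO with each library left out. With 3 libraries per subset and no counts, the intervals given rest on the spread between pools.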
